A study of Mus musculus with 6 samples.

Results

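The 9 genes that receive and relay the Sonic hedgehog signal were followed in the mouse cerebellum at postnatal day 1 with and without *Tox3*. They were taken from the raw count table by gene name, and all 9 (*Smo*, *Gli1*, *Gli2*, *Gli3*, *Boc*, *Cdon*, *Gas1*, *Ptch1* and *Hhip*) were found, each on 1 row, among 54532 genes. *Tox3* encodes a high-mobility group protein of the nucleus. RNA with poly-A tails from whole cerebella gave 6 bulk libraries, of which the labels name 3 as control and 3 as mutant. Controls were littermates of genotype Tox3f/f, which carry floxed *Tox3* alleles and no Cre in their label, and mutants were Nestin-cre;Tox3f/f. Both groups share the floxed alleles and the age. The Nestin promoter drives Cre recombinase in neural progenitors, and recombination is then inherited by most neural cell types. Since every mutant carries this Cre and no control does by its label, effects of the transgene and of the deletion cannot be told apart. Whether a library holds 1 animal or several is not given, so the p-values measure only the spread between these libraries.

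In the hedgehog pathway, a secreted ligand binds the receptor Ptch1, which otherwise holds the membrane protein Smo inactive. Boc, Cdon and Gas1 are surface proteins that help Ptch1 to bind the ligand, and freed Smo turns the Gli zinc-finger factors toward activation in the primary cilium. Gli2 is the main first activator and Gli3 acts largely as a repressor, while *Gli1*, *Ptch1* and *Hhip* are themselves target genes, of which Ptch1 and the ligand-binding Hhip feed back to restrain the signal. In the neonatal cerebellum, Purkinje cells secrete Sonic hedgehog, and granule neuron progenitors (GNPs) of the external granule layer divide in response to it.

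The libraries held between 15391854 and 17178478 counts on genes. Levels are given below as CPM, the counts scaled to library totals that TMM made comparable, and levels of different genes are set side by side as FPKM, which also divides by gene length. The quasi-likelihood test of edgeR gave each log2 fold change and its standard error (SE), p-values were adjusted over 17505 genes by the Benjamini-Hochberg method, and a gene was called when its adjusted p was under 0.01 and its log2 fold change beyond 0.5. *Tox3* itself was counted at 64.3, 63.0 and 64.4 CPM in controls 1, 2 and 3 and at 55.3, 63.2 and 59.2 CPM in mutants 1, 2 and 3. These ranges overlap, and since a count over the whole gene also takes in transcript outside a floxed part, it does not check the labels. *Atoh1*, the bHLH factor that specifies GNPs, was at 32.6, 31.97 and 30.9 CPM in the controls and at 0.577, 0.261 and 0.249 CPM in the libraries labelled mutant. Control and mutant below mean the libraries so labelled.

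*Gli2*, *Boc*, *Gli1* and *Gas1* fell in the mutants. *Gli2* and *Boc* dropped to well under their control level, by 61.6% and 57.0%, while *Gli1* and *Gas1* fell by 30.6% and 29.8%. *Smo* and *Ptch1* were lower by a smaller margin that did not reach the fold threshold, and *Gli3*, *Cdon* and *Hhip* had overlapping groups. In all, 4 of 9 members were called lower and 0 were called higher, beside 3.63% of all tested genes called lower and 3.03% called higher. No member was higher at an unadjusted p under 0.05 either, in edgeR, DESeq2 or limma, so that the count of 0 held for each tool. With the fold threshold dropped, 6 of 9 members, all of them lower, passed an adjusted p of 0.01 in edgeR. Beside them, 1268 of 17505 tested genes passed in that direction, and 13.8% of all tested genes in either direction. The control and mutant ranges did not overlap for the same number, 6 members, all lower in the mutants, beside 20.1% of tested genes that were apart in that direction and 20.4% in the other. The median log2 fold change over the members was −0.33, and over all tested genes −0.01. Without control 1 or without mutant 2, the count of members called lower was 2, and without mutant 3 it was 3.

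**Figure D1:**
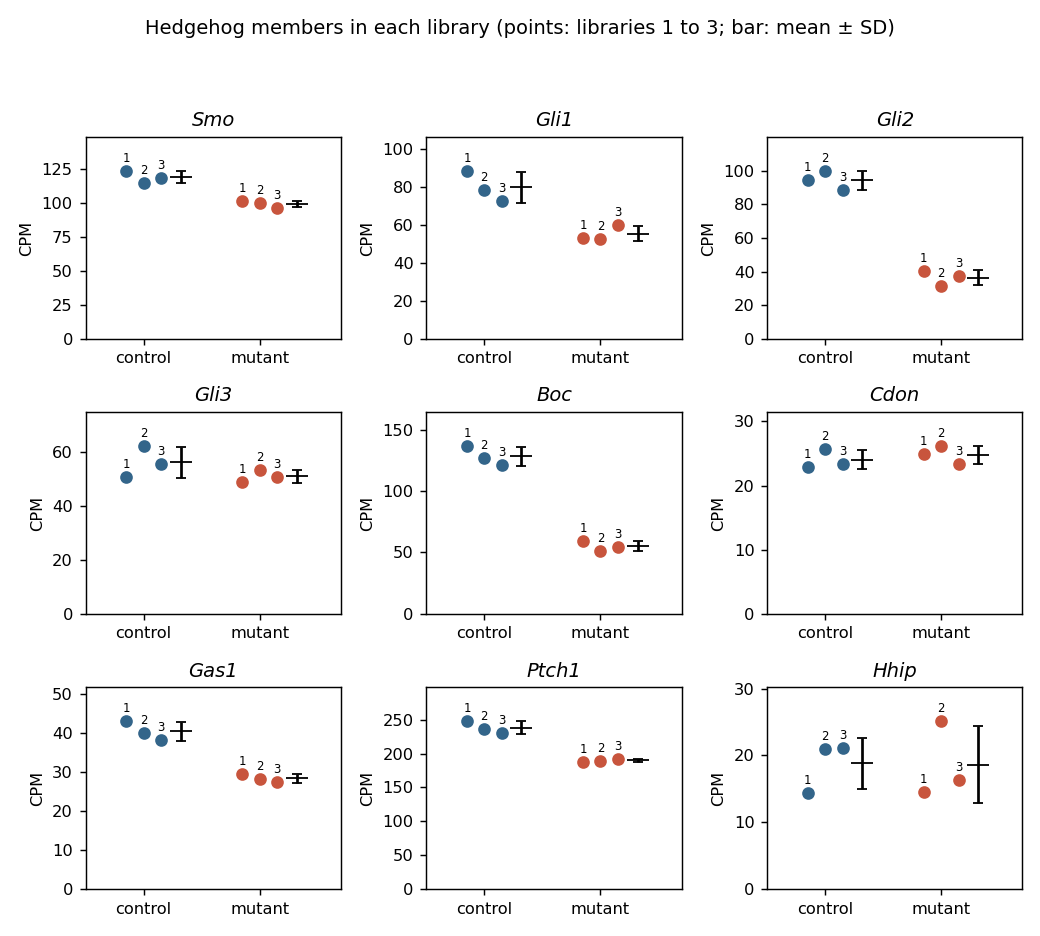
CPM of each of the 9 members in every library, with libraries numbered 1 to 3 within the control and mutant groups and a bar for the mean ± SD of each group. *Gli2* and *Boc* show the widest gaps between the groups, *Smo*, *Gli1*, *Gas1* and *Ptch1* narrower ones, and *Gli3*, *Cdon* and *Hhip* overlap.

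The signal transducer and the activating Gli factors came first. *Smo* (ENSMUSG00000001761; GRCm38 chr6:29735503-29761365, plus strand), the membrane protein that carries the signal into the cell, was counted at 123, 115 and 118 CPM in controls 1, 2 and 3 and at 101, 99.97 and 96.3 CPM in mutants 1, 2 and 3. Every mutant library lay below every control library, and the spread within each group was small (119 ± 4.48 and 99.1 ± 2.48 CPM, SD, n = 3 each). Its log2 fold change was −0.26 (SE 0.05, 95% interval −0.37 to −0.15) with an adjusted p of 0.00485 in edgeR's quasi-likelihood test, short of the fold that a call required. In the same test the adjusted p was above 0.01 without control 1, control 3, mutant 1 or mutant 3 (between 0.0156 and 0.0302). In limma on FPKM it was 0.0149 and 0.0155.

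*Gli1* (ENSMUSG00000025407; chr10:127329882-127341974, minus strand), an activator that depends on the pathway for its own transcription, was at 88.7, 78.7 and 72.6 CPM in the controls and 53.4, 52.9 and 60.2 CPM in the mutants. The groups were apart, control 3 being the lowest control and mutant 3 the highest mutant. On the log2 scale *Gli1* fell by 0.53 (SE 0.08, 95% interval −0.72 to −0.34, adjusted p = 0.00156, edgeR's quasi-likelihood test). That is just past the fold threshold, and the call was lost without control 1 (−0.45) and without mutant 2 (−0.48).

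*Gli2* (ENSMUSG00000048402; chr1:118834132-119053619, minus strand) had the deepest fall among the members. Its level was 94.5, 99.997 and 88.7 CPM in controls 1, 2 and 3 and 40.1, 31.4 and 37.2 CPM in mutants 1, 2 and 3. No mutant library reached the lowest control. Expressed per group, 94.4 ± 5.66 CPM became 36.2 ± 4.41 CPM (SD, n = 3 each), a log2 fold change of −1.38 (SE 0.09, 95% interval −1.58 to −1.18) with an adjusted p of 1.12e-05 in edgeR's quasi-likelihood test. Over 17 other settings of the fit the value lay between −1.46 and −1.23, and the call held in each of them.

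Promoter sequence is shown for 3 members that span the range of change, *Gli2*, *Ptch1* and *Hhip*. Each line gives the 250 bases before the RefSeq transcription start, 5′ to 3′ on the gene's own strand, in the GRCm38.p6 build (chr1:119053620-119053869, chr13:63565736-63565985 and chr8:80058009-80058258, all minus strand), and capitals mark GC boxes.
Gli2: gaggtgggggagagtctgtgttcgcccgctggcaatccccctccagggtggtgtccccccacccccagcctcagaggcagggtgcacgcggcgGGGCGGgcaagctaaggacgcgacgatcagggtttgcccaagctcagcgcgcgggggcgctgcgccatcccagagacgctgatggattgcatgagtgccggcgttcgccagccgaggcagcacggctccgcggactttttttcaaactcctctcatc
Ptch1: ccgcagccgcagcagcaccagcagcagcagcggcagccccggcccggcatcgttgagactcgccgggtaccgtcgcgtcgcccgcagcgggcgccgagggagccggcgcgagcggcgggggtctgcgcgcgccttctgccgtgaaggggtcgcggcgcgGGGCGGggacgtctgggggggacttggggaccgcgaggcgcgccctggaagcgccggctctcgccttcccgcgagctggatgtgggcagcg
Hhip: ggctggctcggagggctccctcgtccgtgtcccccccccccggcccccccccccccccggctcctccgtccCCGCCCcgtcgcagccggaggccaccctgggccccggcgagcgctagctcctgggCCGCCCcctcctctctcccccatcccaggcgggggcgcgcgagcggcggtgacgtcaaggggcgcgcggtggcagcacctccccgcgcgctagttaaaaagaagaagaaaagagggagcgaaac
The *Ptch1* start used by RefSeq lies inside the counted gene model, which extends further upstream, and the windows of *Gli3* and *Cdon*, not shown, also lie inside their gene models and overlap exons. The *Gas1* window, not shown, lies outside the *Gas1* gene model but overlaps 1 annotated exon. Of the 9 members, 7 had an entry in the promoter table, and *Gli1* and *Boc* had none. The GC box GGGCGG, searched on both strands as GGGCGG or CCGCCC, occurred in 5 of the 7 (*Gli2*, *Gli3*, *Gas1*, *Ptch1* and *Hhip*) and in 32.7% of 32851 promoters of the same length. A Gli binding sequence, GACCACCCA or its complement TGGGTGGTC, occurred in 0 of the 7 windows and in 0.225% of all promoters. Of the E-boxes, the hexamers that bHLH factors bind, CAGCTG (its own complement) was in 0 of the 7 and in 13.0% of promoters, and CAGATG or CATCTG in 1, *Gli3*, and in 14.4%. None of these motifs is contained in another. The called and the uncalled members with an entry both included promoters with a GC box, *Gli2* and *Gas1* among the former.

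*Gli3* (ENSMUSG00000021318; chr13:15463235-15730026, plus strand), the Gli factor processed mainly to a repressor, was counted at 50.6, 62.3 and 55.5 CPM in the controls and 48.8, 53.5 and 50.9 CPM in the mutants. Control 1 lay within the mutant range. The log2 fold change was −0.14 (95% interval −0.32 to 0.05, adjusted p = 0.268, edgeR's quasi-likelihood test), so a change of the size seen for *Gli2* lies outside its interval.

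The share of each factor in the summed Gli transcripts did not overlap between the groups. Such shares are tied to each other, since a deeper fall of 1 factor raises the shares of the others. They are thus not separate results, and the *Gli1* share rose although *Gli1* itself fell. Summed over the 3 factors, FPKM was 36.4, 36.5 and 32.9 in the controls and 21.6, 20.5 and 22.7 in the mutants. *Gli2* took 38.6 ± 1.09% of that sum in the controls and 24.3 ± 2.52% in the mutants, *Gli3* took 16.5 ± 1.85% and 24.6 ± 2.02%, and *Gli1* 44.9 ± 2.91% and 51.1 ± 1.75% (SD, n = 3 each). In FPKM, *Gli2* stood above *Gli3* in every control, whereas in the mutants their ranges overlapped. The ratio of *Gli2* to *Gli3* CPM was 1.87, 1.61 and 1.60 in controls 1, 2 and 3 and 0.822, 0.587 and 0.731 in mutants 1, 2 and 3. On the log2 scale the mean ratio differed by −1.25 (SE 0.16). The exact two-sided permutation test gave p = 0.1, the smallest that 3 libraries against 3 allow, and 0.129 after adjustment over the 9 ratios compared. The same exact permutation p of 0.1 held for *Gli1* to *Gli2*, whose log2 ratio was higher in the mutants by 0.86 (SE 0.13), and for *Gli1* to *Gli3*, which differed by −0.39 (SE 0.17). Without control 1 this last difference was −0.24, and its exact permutation p was 0.2 without control 1, mutant 1 or mutant 2.

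**Figure D2:**
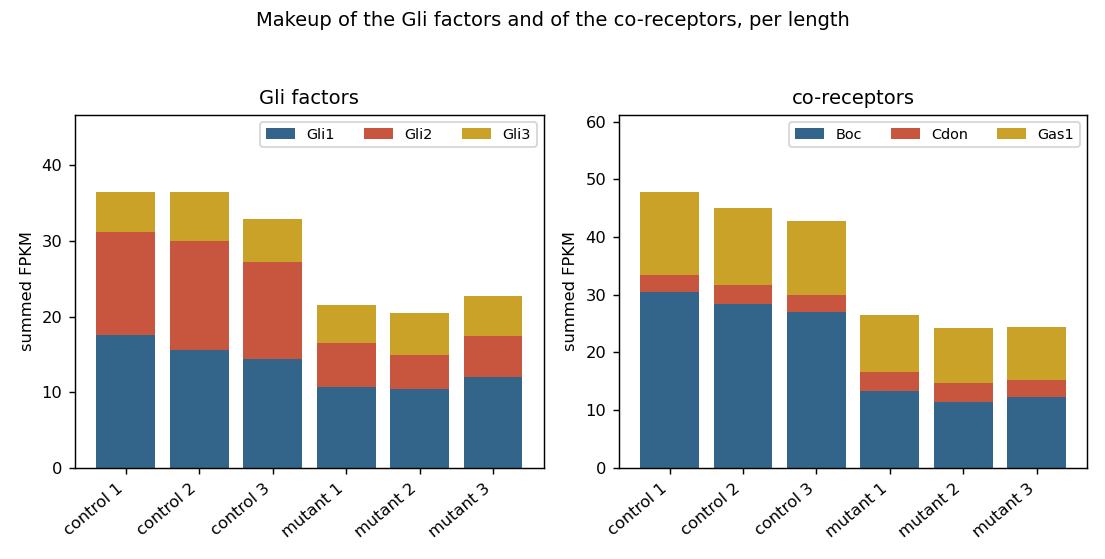
Stacked FPKM of the 3 Gli factors (left) and of the 3 co-receptors (right) in each of the 6 libraries. The summed bars are lower in every mutant than in any control, and the *Gli2* and *Boc* segments shrink from 38.6% to 24.3% and from 63.2% to 49.2% of the sum.

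Of the co-receptors, *Boc* and *Gas1* fell and *Cdon* was not called. *Boc* (ENSMUSG00000022687; chr16:44485049-44558897, minus strand), an immunoglobulin and fibronectin repeat protein, was at 137, 127 and 121 CPM in the controls and at 59.6, 51.3 and 54.7 CPM in the mutants. Every mutant lay far below the lowest control. From 128 ± 7.89 CPM in the controls to 55.2 ± 4.199 CPM in the mutants (SD, n = 3 each), *Boc* fell by 1.22 on the log2 scale (SE 0.07, 95% interval −1.37 to −1.06, adjusted p = 5.52e-06, edgeR's quasi-likelihood test), and it was called in all 17 other settings.

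*Cdon* (ENSMUSG00000038119; chr9:35421128-35507652, plus strand), the paralog of *Boc* with a like extracellular architecture, was counted at 22.9, 25.7 and 23.4 CPM in the controls and 24.9, 26.2 and 23.4 CPM in the mutants. These ranges overlap almost completely. The log2 fold change of 0.05 had a 95% interval of −0.15 to 0.24 and an adjusted p of 0.735 (edgeR's quasi-likelihood test).

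*Gas1* (ENSMUSG00000052957; chr13:60174405-60177365, minus strand), a lipid-anchored surface protein unrelated to the other co-receptors, was at 43.1, 39.9 and 38.2 CPM in the controls and 29.6, 28.2 and 27.3 CPM in the mutants. The groups were apart, with little spread among the mutants. *Gas1* fell by 0.51 on the log2 scale (SE 0.08, 95% interval −0.69 to −0.33, adjusted p = 0.00138, edgeR's quasi-likelihood test). Its fold was so close to the threshold that it was lost without control 1 (−0.46), without mutant 2 (−0.49), without mutant 3 (−0.48) and under 4 settings of the scale or threshold, while the direction held throughout.

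The co-receptors were also set against each other within each library. The ratio of *Boc* to *Gas1* CPM was 3.18, 3.18 and 3.17 in controls 1, 2 and 3 and 2.02, 1.82 and 2.0 in mutants 1, 2 and 3, a log2 difference of −0.71 (SE 0.05). For *Boc* to *Cdon* the difference was −1.27 (SE 0.12), and for *Cdon* to *Gas1* it was 0.56 (SE 0.09). None of the 3 ratios overlapped between the groups, and each had the smallest exact permutation p, 0.1, and 0.129 after adjustment. Of the summed co-receptor FPKM, which was 47.8, 45.0 and 42.8 in the controls and 26.6, 24.2 and 24.5 in the mutants, *Boc* made up 63.2 ± 0.404% and 49.2 ± 1.75%, *Gas1* 29.9 ± 0.219% and 38.0 ± 0.776%, and *Cdon* 6.84 ± 0.620% and 12.8 ± 0.978% (SD, n = 3 each). These shares too are tied to each other, and the *Cdon* share rose while the level of *Cdon* overlapped between the groups.

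Of the feedback targets, *Gli1* was called, *Ptch1* was apart between the groups, and *Hhip* overlapped. *Ptch1* (ENSMUSG00000021466; chr13:63508328-63573598, minus strand), the ligand receptor and the most abundant member by CPM, was counted at 248, 237 and 230.1 CPM in the controls and at 188, 189 and 193 CPM in the mutants. The mutant libraries lay close together and all below the controls. At a log2 fold change of −0.33 (SE 0.04, 95% interval −0.43 to −0.23), *Ptch1* had an adjusted p of 0.000712 in edgeR's quasi-likelihood test but did not reach the fold threshold. *Gli1*, the other target with separated groups, was lower relative to *Ptch1*, with a log2 ratio difference of −0.20 (SE 0.07) with an exact permutation p of 0.1 and 0.129 after adjustment, which became 0.2 unadjusted when any library but mutant 3 was left out. The ratio of *Ptch1* to the *Smo* that it inhibits differed by −0.07 (SE 0.04), with overlapping groups and an exact permutation p of 0.2.

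*Hhip* (ENSMUSG00000064325; chr8:79965851-80058006, minus strand), a membrane-bound decoy that sequesters the ligand, was at 14.4, 20.9 and 21.1 CPM in controls 1, 2 and 3 and 14.5, 25.2 and 16.3 CPM in mutants 1, 2 and 3. Its spread was wide relative to its mean (18.8 ± 3.83 and 18.6 ± 5.72 CPM, SD, n = 3 each), and the groups overlapped. The log2 fold change of −0.02 had a 95% interval of −0.49 to 0.45 (adjusted p = 0.963, edgeR's quasi-likelihood test), which also holds the value found for *Ptch1*. The log2 ratio of *Ptch1* to *Hhip* differed by −0.29 (SE 0.32, exact permutation p = 0.6), and by −0.08 without control 1 and −0.05 without mutant 2.

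The *Hhip* values followed a split of the libraries that the labels do not give. Transcripts of the Y chromosome were present in control 1, mutant 1 and mutant 3, where *Ddx3y* was at 94.5, 71.3 and 68.6 CPM, and *Ddx3y* was at 0 in the other libraries, where *Xist*, the RNA of the inactive X chromosome, was at 2419, 2147 and 1983 CPM. *Hhip* was at 14.4, 14.5 and 16.3 CPM in the libraries with Y transcripts and at 20.9, 21.1 and 25.2 CPM in those without. With the Y-chromosome level as a covariate, the coefficient of that level spanned −0.65 on the log2 scale for *Hhip* (adjusted p = 0.000985, edgeR's quasi-likelihood test), and among the other members the smallest adjusted p of this coefficient was 0.232, for *Boc*. Over all tested genes, 3.16% had an adjusted p under 0.01 for it. Of those 554 genes, 545 were lower in the libraries with Y transcripts, only 47 lay on the X or Y chromosome, and the median gene model length of the 545 was 10383 bases against 3936 bases over all tested genes, beside 9076 bases for *Hhip*. The split thus moved with gene length as well as with *Xist* and the Y transcripts, and the part of either in the *Hhip* values was not tested. Within the libraries with Y transcripts (1 control, 2 mutants) the log2 difference of *Hhip* was 0.10, and within those without (2 controls, 1 mutant) 0.26, with no test. Within the same splits the differences were −1.29 and −1.59 for *Gli2*, −1.26 and −1.28 for *Boc*, −0.64 and −0.52 for *Gli1*, −0.60 and −0.47 for *Gas1*, and −0.38 and −0.30 for *Ptch1*.

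**Figure D3:**
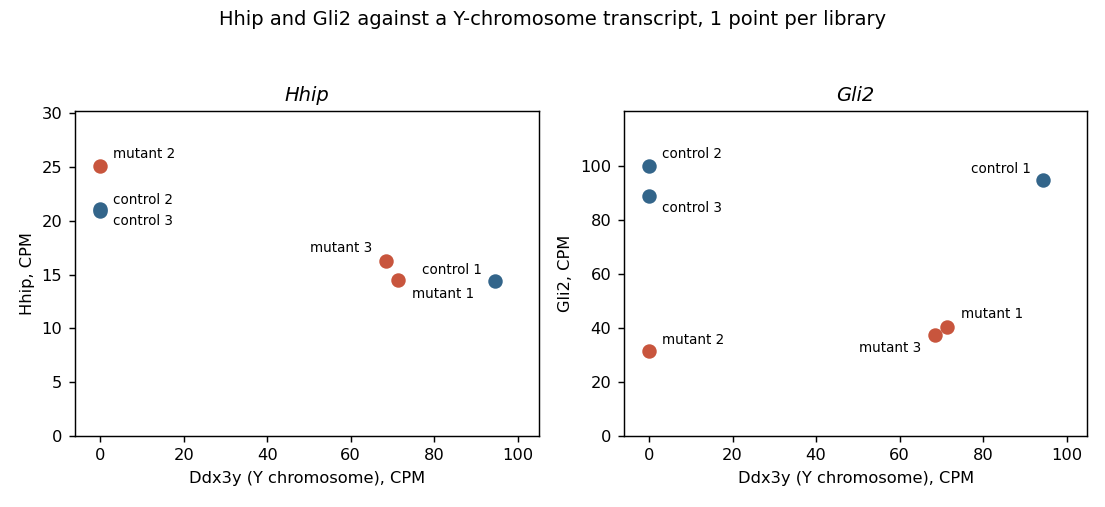
CPM of *Hhip* (left) and *Gli2* (right) against CPM of the Y-chromosome gene *Ddx3y*, with 1 labelled point per library, blue for control and red for mutant. *Hhip* is lower in the 3 libraries with *Ddx3y* whatever their group, whereas *Gli2* is lower in the 3 mutants with or without *Ddx3y*.

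Per length, the members stood in another order in the mutants than in the controls. In controls *Boc* was highest (28.6 ± 1.74 FPKM, SD, n = 3) and was followed by *Smo* (20.9 ± 0.777 FPKM), both clear of their neighbours. *Ptch1*, *Gli1*, *Gli2* and *Gas1* came next between 16.7 and 13.5 FPKM, and each overlapped the next in that order. *Gli3* (5.80 FPKM), *Cdon* (3.09 FPKM) and *Hhip* (2.05 FPKM) were the lowest and did not overlap. In mutants *Smo* led at 17.5 ± 0.427 FPKM, followed by *Ptch1*, *Boc* and *Gli1* between 13.3 and 11.1 FPKM, of which *Boc* overlapped both others. *Gas1* stood at 9.53 FPKM, *Gli3* and *Gli2* overlapped at 5.30 and 5.25 FPKM, and *Cdon* and *Hhip* closed the order as in the controls.

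Genes that overlap a member could share reads, since how the counting treated strand is not given in the sources used here. The overlapping genes with the most counts were *Gm6556* on the strand opposite *Gli3*, with a mean of 34.8 counts per library, and *Gm48488* opposite *Gas1*, with 20, beside at least 777 and 432 counts of the members themselves.

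Among 45 other hedgehog pathway genes, 44 were tested, of which 5 were called lower, beside 3.63% of all tested genes, and 3 higher, beside 3.03%, with a median log2 fold change of 0.02. By log2 fold change, 19 of the 44 were lower and 25 higher. All 5 that were called lower are listed targets of the pathway. Of 7 listed targets outside the members, 5 were called lower, with a median of −0.62 over the 7. The control and mutant ranges were apart for 6 in the lower and 1, *Bcl2*, in the higher direction, beside 20.1% and 20.4% of all tested genes. *Sfrp1*, which encodes a secreted Wnt antagonist, was at 139, 126 and 120.3 CPM in controls 1, 2 and 3 and 55.0, 46.9 and 53.6 CPM in mutants 1, 2 and 3. Every mutant lay below every control, and *Sfrp1* fell by 1.31 on the log2 scale (SE 0.08) with an adjusted p of 6.21e-06 in edgeR's quasi-likelihood test. The D-type cyclins *Ccnd1* and *Ccnd2*, which drive entry into S phase, fell by 1.05 (SE 0.05) and 0.84 (SE 0.06). *Mycn*, a transcription factor that hedgehog induces in GNPs, fell by 0.62 (SE 0.05), and *Foxm1*, a regulator of mitotic genes, by 0.59 (SE 0.07). *Bmi1*, a Polycomb subunit, was at −0.26 (adjusted p = 0.00665, edgeR's quasi-likelihood test), short of the fold threshold. *Bcl2*, which restrains apoptosis, was at 0.17, and neither was called. Several of these targets are cell cycle genes that other signals induce too.

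Among the ligands, release factors and other ligand binders, the 3 called genes were higher. *Shh*, the ligand, was covered by 55, 69 and 66 counts in controls 1, 2 and 3 and by 130, 92 and 123 counts in mutants 1, 2 and 3, or 3.58, 4.49 and 4.24 CPM and 7.498, 5.996 and 7.66 CPM. All mutants lay above all controls, and *Shh* rose by 0.78 on the log2 scale (SE 0.17, 95% interval 0.40 to 1.16, adjusted p = 0.00829, edgeR's quasi-likelihood test). At this low count the call was lost without any 1 of controls 1, 2 and 3 or mutants 1 and 3 (adjusted p between 0.0186 and 0.0363) and with the replicate number as a block (0.0103). Both limma fits on FPKM and glmTreat lost the *Shh* call too. *Scube2*, whose product helps to release the lipid-modified ligand, rose from 53.7 ± 4.25 CPM to 91.7 ± 7.22 CPM (SD, n = 3 each; log2 fold change 0.77, SE 0.08). *Gpc3*, a heparan sulfate proteoglycan that can bind the ligand, rose from 36.1 ± 5.55 CPM to 57.0 ± 6.82 CPM (log2 fold change 0.66, SE 0.12). In edgeR's quasi-likelihood test its call was lost without control 3 (adjusted p = 0.0107) and without mutant 1 (adjusted p = 0.0147). Both limma fits on FPKM and glmTreat lost it too. *Gpc4*, another glypican, was at −0.42, from 27.2 ± 0.680 CPM to 20.4 ± 1.22 CPM (SD, n = 3 each; adjusted p = 0.00479, edgeR's quasi-likelihood test), with the groups apart but short of the fold threshold. *Ihh* was at a mean of 0.864 CPM in the controls and 0.644 CPM in the mutants and was not called, and *Dhh*, with at most 8 counts in any library, was not tested.

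Of 25 cytoplasmic and ciliary regulators, which include *Sufu*, *Kif7*, protein kinase A subunits and ubiquitin ligase parts, 0 were called by edgeR's quasi-likelihood test, DESeq2 or limma. Over all tested genes, edgeR called 3.63% lower and 3.03% higher. In edgeR, 4 were lower and 10 higher at an unadjusted p under 0.05, as were 3 and 9 in both other tools. The weakest of these regulators, at an unadjusted p of 0.0407 in edgeR's quasi-likelihood test, ranked 6137 by p among the 17505 tested genes. Such p-values were thus common over all genes too. The control and mutant ranges were apart for 6 of the 25 in the lower and 11 in the higher direction. Beside them stand 20.1% and 20.4% of all tested genes. The 25 regulators had a median log2 fold change of 0.04 and a range of −0.27 to 0.47. At an adjusted p under 0.01 without the fold threshold, *Stk36* (0.47) and *Arrb1* (0.37) were higher. *Sufu*, the main cytoplasmic inhibitor of the Gli factors, was at −0.17 (95% interval −0.31 to −0.02, adjusted p = 0.0881).

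**Figure D4:**
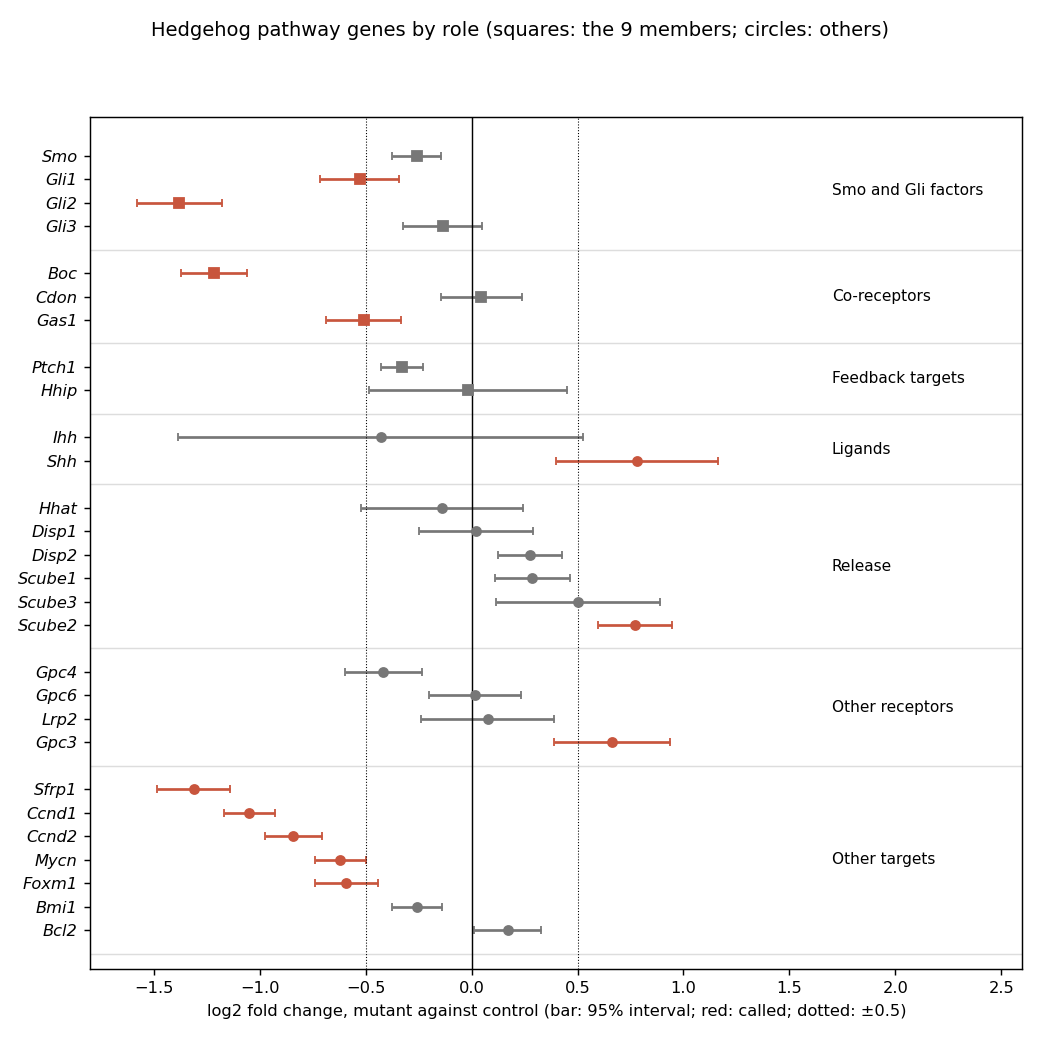
Log2 fold change of mutant against control with its 95% interval for the 9 members (squares) and the tested ligands, release factors, other receptors and other targets (circles), grouped by role, with called genes in red and dotted lines at ±0.5. Most targets and *Boc*, *Gli2*, *Gli1* and *Gas1* lie to the left, and *Shh*, *Scube2* and *Gpc3* to the right.

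Cell type markers moved with these results. In bulk tissue, fewer cells of a type and less RNA per cell cannot be told apart. Which cells carried each member's RNA was not measured in these libraries. The study also profiled single nuclei of control and mutant P1 cerebella, and those data were not used here. Over all tested genes, 3.63% were called lower, which stands beside the counts of this list and the next. Of 8 GNP markers, 5 were called lower, with a median log2 fold change of −1.04, and the list's summed level went from between 3592 and 3635 CPM in the controls to between 2232 and 2437 CPM in the mutants. The largest part of that sum was *Zic1*, at 1594 ± 23.4 CPM in the controls and 1294 ± 53.9 CPM in the mutants (SD, n = 3 each). *Zic1* was not called. Granule neuron markers were called lower in 4 of 5 cases (median −0.79), and their sum lay between 1601 and 1648 CPM in the controls and between 804 and 903 CPM in the mutants.

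Called markers of Purkinje cells, glia and meninges were higher, beside 3.03% of all tested genes called higher. Purkinje cell markers, of the cells that make the ligand, were called higher in 4 of 6 cases (median 0.57, sum 1493 to 1632 CPM against 2076 to 2556 CPM), as were 3 of 8 markers of Bergmann glia and astrocytes (median 0.34, 3314 to 3391 CPM against 4301 to 4657 CPM) and 4 of 6 of the oligodendrocyte lineage (median 0.68, 408 to 435 CPM against 507 to 542 CPM). *Pdgfra*, the oligodendrocyte precursor marker of that list, was at −0.45 instead, from 194 ± 11.3 CPM to 142 ± 3.24 CPM (SD, n = 3 each; adjusted p = 0.000307, edgeR's quasi-likelihood test), short of the fold threshold. Meninges markers were called higher in 2 of 6 cases (median 0.17, sum 685 to 720 CPM against 830 to 1010 CPM), but by log2 fold change 3 were lower and 3 higher. Endothelium markers were called higher in 0 of 5 cases (323 to 353 CPM against 312 to 324 CPM), with 1 of them lower at an unadjusted p under 0.05 in edgeR, DESeq2 and limma. Choroid plexus markers ranged from 74.2 to 141 CPM in the controls and from 11.5 to 749 CPM in the mutants, with the highest sum in mutant 3. Of the 5, edgeR, DESeq2 and limma called 0, and 2 were higher at an unadjusted p under 0.05 in edgeR and 0 in the other tools. For this list and the endothelium, unadjusted p-values under 0.05 were common over all tested genes, as set out for the regulators above. The midbrain list summed to at most 16.1 CPM and the hindbrain *Hox* list to at most 0.847 CPM in any library. These are low-level transcription factor genes for the most part, and how much RNA of the neighbouring regions the libraries held was not measured. The part of these markers in the members' values was not tested.

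The genes whose levels followed the called members most closely were found by the distance between log2 CPM profiles, each relative to its control mean, over the 6 libraries and among the 11063 genes whose mean reached 10 CPM. *Sfrp1* was nearest to *Gli2* (distance 0.220) and was among the nearest pair of *Boc* (0.183). The other gene near *Gli2* was *Plagl1* (0.272), a zinc-finger factor, at a log2 fold change of −1.37, and the other near *Boc* was the DNA helicase gene *Pif1* (0.179), at −1.21. *Gli1* lay closest to *Rcl1* (0.116, log2 fold change −0.50) and to *Nfia* (0.135, −0.57), which encodes a nuclear factor I protein. *Gas1* lay closest to *Pkmyt1* (0.0664, −0.50), a kinase gene of mitotic entry, and to *Bcar1* (0.0677, −0.50), which encodes an adhesion docking protein. This ranking describes 6 libraries in 2 groups, so that genes with a like difference between the groups come near each other by construction.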

How the data were processed

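Bulk mRNA of P1 mouse cerebella was measured in 3 control and 3 mutant libraries, grouped by their labels. The authors deposited raw counts per gene, made by aligning trimmed reads to mm10 with HISAT2 2.0.5 and counting with featureCounts 1.5.0-p3 per the submitters' processing notes, and FPKM values that the authors computed from counts and gene length. The annotation release, strand setting and handling of multi-mapping reads are not given in the sources used here, so overlapping genes may share reads. The deposited columns with the authors' own fold changes and p-values were not used.

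The quasi-likelihood test of edgeR 4.0.16 in R 4.3.3 was run on the counts after filterByExpr and TMM (glmQLFit, glmQLFTest; SE taken as the log2 fold change over the root of F) and kept 17505 genes at a common dispersion of 0.0105. Calls required a Benjamini-Hochberg adjusted p under 0.01 together with a fold beyond 0.5 on the log2 scale. Ratios between members were compared with exact two-sided permutation tests over the 6 libraries. Total counts per library of 15391854 to 17178478 put 3 counts at no more than 0.195 CPM. Same-group libraries differed beyond sampling noise, so none was a copy.

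The members, gene lists and tests were chosen with earlier results of these data known. The genes named are the 9 members, *Tox3*, *Atoh1*, *Shh*, the called genes of the other pathway lists, and for each called member the 2 tested genes outside the members of nearest profile. *Pdgfra*, *Zic1*, *Gpc4*, *Bmi1*, *Bcl2*, *Stk36*, *Arrb1*, *Sufu*, *Kif7*, *Ihh*, *Dhh*, *Gm6556*, *Gm48488*, *Ddx3y* and *Xist* were named in addition, after their values were seen. For 2 genes of the lists, results are not reported here, and the lists are given without them. Promoters came from RefSeq (GRCm38.p6).

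Alternatives were DESeq2 1.42.0, its size factors in edgeR, library size alone, no filter or a minimum of 10 counts in every library, a block for the replicate number, the Y-chromosome level as a covariate, limma 3.58.1 on log2(FPKM + 1) and log2(FPKM + 0.1), no fold threshold, glmTreat, and each library left out. The split by Y-chromosome transcripts and the coefficient of their level were chosen after seeing the data. On simulated counts for the mutant and control comparison with 200 changed genes, edgeR recovered 199 with 2 false calls among 17289 genes. DESeq2 recovered 196 with 0 among 17505, and limma-trend on log2(FPKM + 1) 197 with 7 among 17458. Recovery of genes close to the fold threshold, such as *Gli1* and *Gas1*, or at low counts, such as *Shh*, was not tested separately.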

Additional observations from a re-analysis of the deposited data

How the results depend on the processing

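Every called member kept its direction under the 17 alternatives, and *Gli2* and *Boc* kept their calls, whereas *Gli1* and *Gas1*, close to the fold threshold, lost theirs in 5 and 7 of them. The count of members called lower, 4, became 2 under limma on log2(FPKM + 1) and log2(FPKM + 0.1) and 2 under glmTreat, and lay between 2 and 4 with 1 library left out (2 without control 1 or mutant 2). Other pathway genes called lower, 5, became 3 under glmTreat, and those called higher, 3, became 1 and 1 under limma, 5 with no fold threshold, 0 under glmTreat and 1 to 5 with 1 library left out (1 without control 3 or mutant 1, 5 without mutant 2). Over all tested genes, 635 lower and 530 higher became 360 and 243 under limma on log2(FPKM + 1), 416 and 297 on log2(FPKM + 0.1), 1268 and 1147 with no fold threshold, and 145 and 30 under glmTreat. With 1 library left out, calls lay between 492 and 778 lower and 349 and 569 higher, with 349 without mutant 3. *Hhip*, not called, turned from −0.02 to 0.17 with the Y-chromosome level as covariate, to 0.10 and 0.26 within the split by Y-chromosome transcripts, and lay between −0.28 and 0.14 with 1 library left out. The cause of these shifts was not tested, beyond the fewer samples and other thresholds the settings impose. Correlations of deviations between a control and a mutant of the same replicate number were 0.50, 0.57 and −0.39 for numbers 1, 2 and 3. Unlike numbers reached 0.60 (control 1 with mutant 3) and 0.42 (control 3 with mutant 2), so the numbers did not mark pairs. Positive values joined libraries alike in having Y-chromosome transcripts or not, and negative values joined libraries that differed in this. With the replicate block, 4 members, 5 other pathway genes lower and 2 higher, and 696 and 561 of all genes were called, and *Shh* was the pathway gene that missed its call. With 3 libraries a group, the interval of *Hhip* spans falls and rises.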
